A study of Mus musculus with 2 samples.

Results

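The PARP family ADP-ribosyltransferases were followed in peritoneal macrophages of male C57BL/6 mice, 48 h after transfection with an siRNA against HDAC9, a histone deacetylase, or with a control siRNA. Each group was 1 Affymetrix expression array and no replicate was available, so no test could be made and every value describes a difference between 2 arrays, which cannot be told apart from a difference between 2 cultures. The labels do not say whether cells of several mice were pooled, and both groups went through transfection, with no untransfected cells analysed here. Of 10 PARP genes listed, Parp1, Parp2, Parp3, Parp4, Parp8, Parp9, Parp10, Parp11, Parp12 and Parp14, 9 had probe sets (groups of short probes for a transcript) annotated with a single gene symbol. These 9 genes, of 18193 genes in all, were read by 17 probe sets. Parp10 was annotated only on a probe set that carries several gene symbols and is not described. The genes had been selected on the log2 values of both arrays, with their differences known, so all counts of members below are descriptions.

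PARP enzymes take the ADP-ribose unit from NAD+ and attach it to proteins or nucleic acids, either as a single unit or as a chain. PARP1 and PARP2 are activated by DNA breaks and build chains that recruit repair factors, and PARP3 attaches single units at double-strand breaks. Another branch of the family is induced by interferon and acts in antiviral defence: PARP9 and PARP14 carry macrodomains, folds that bind ADP-ribose, PARP12 has zinc fingers that bind RNA, and PARP11 attaches single units. PARP4 is a component of the vault particle, a large ribonucleoprotein shell, and PARP8 attaches single units to targets that are little known.

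All 9 genes were above background on both arrays. The 4 interferon-inducible PARPs, Parp9, Parp11, Parp12 and Parp14, were each higher on the HDAC9 siRNA array, by 1.24 to 1.34-fold, and the 3 DNA-repair PARPs were higher by 1.11 to 1.28-fold. The largest difference among the 9 belonged to neither group: Parp4 was 1.57-fold higher. Parp8 was the only gene with a lower value, at a log2 difference of -0.03. No member reached 2-fold in either direction.

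Stretches upstream of 2 members are printed because they hold the core of the interferon-stimulated response element, a DNA element found upstream of many interferon-induced genes. They come from RefSeq promoter windows of build GRCm38.p6, from 250 bases before to 50 after an annotated transcript start. The core was searched on both strands as GAAA, any 2 bases and GAAA, and its matches are in capitals; only bases before the start are shown. The Parp4 stretch is chr14:56575409-56575538 on the plus strand, and the Parp11 stretch is chr6:127446736-127446839 on the plus strand.
Parp4: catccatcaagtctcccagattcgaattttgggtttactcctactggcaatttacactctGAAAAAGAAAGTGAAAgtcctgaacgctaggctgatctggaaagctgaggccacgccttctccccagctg
Parp11: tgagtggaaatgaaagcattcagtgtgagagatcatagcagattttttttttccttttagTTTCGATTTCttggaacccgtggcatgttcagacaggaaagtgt

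The capitals of Parp4 are 2 overlapping matches, GAAAAAGAAA and GAAAGTGAAA, both on the strand of the gene, the first starting 150 bases before the transcript start. The match of Parp11 lies on the other strand, 44 to 35 bases before the start, and reads GAAATCGAAA there. A second annotated start of Parp11 had no match in its window. Windows were held for 7 of the 10 members, all but Parp9, Parp10 and Parp14. The windows of Parp12, Parp1, Parp2, Parp3 and Parp8 did not contain these letters, nor did that of Dtx3l. Of 32851 promoter windows of all genes, 3.44% held the core, as did 10 of 22 windows of the antiviral interferon-stimulated genes listed for this comparison. The core of the gamma-activated site, TTCNNNGAA, was found in 8.3% of all windows and, among the members, only in that of Parp11, where TTCTTGGAA overlaps that match and ends 29 bases before the start. These matches are letters in a window; the arrays do not measure binding.

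Among the interferon-inducible members, Parp9, whose protein works with the ubiquitin ligase DTX3L, had deposited log2 signals of 11.04 with the control siRNA and 11.46 with the HDAC9 siRNA (probe set 1416897_at). Parp12 had signals of 11.33 and 11.75 (1426774_at). The brighter probe set of Parp14, 1451564_at, had signals of 11.05 and 11.47. The log2 differences, HDAC9 siRNA minus control siRNA, were thus close to each other, at 0.41 for Parp9, 0.42 for Parp12 and 0.42 for Parp14. The dimmer probe set of Parp14, 1432548_at, gave 7.54 and 7.67, a difference of 0.14. Parp11 had signals of 9.25 and 9.56 by its brighter probe set (1434139_at, difference 0.31), and 6.51 and 7.32 by its dimmer one (1444029_at, difference 0.82), which on the control array was just above the background floor of 6.34. For Parp14 the brighter probe set showed the larger difference, and for Parp11 the dimmer one.

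The DNA-repair members were also higher by their brightest probe sets. Parp1, which senses single-strand breaks and makes most of the cell's poly(ADP-ribose), was read by 4 probe sets. The brightest, 1422502_at, had signals of 10.87 with the control siRNA and 11.10 with the HDAC9 siRNA, a difference of 0.23. Of its other probe sets, 1422503_s_at went from 10.26 to 10.67 (0.41), 1435368_a_at from 9.88 to 9.86 (-0.02), and 1443573_at, near the floor, from 6.35 to 6.59 (0.23). The probe sets of this single gene therefore spanned 0.43 on the log2 scale, more than the distance between the groups. Parp2, a relative of Parp1 in the same repair pathway, had signals of 10.15 and 10.29 on its only probe set (1417800_at, difference 0.15). Parp3 was read by 3 probe sets, all with name endings that mark probes not unique to 1 transcript. Their signals were 10.66 and 11.01 (1451969_s_at, difference 0.35), 8.88 and 9.45 (1426210_x_at, 0.56), and 8.90 and 9.0 (1445888_x_at, 0.10). All 3 were higher on the HDAC9 siRNA array, by amounts that again differed more than the groups did.

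Parp4 had signals of 8.93 with the control siRNA and 9.58 with the HDAC9 siRNA by its brighter probe set (1452351_at, difference 0.65). Its dimmer probe set, 1441026_at, was near the floor, at 6.59 and 6.99 (difference 0.40). Both probe sets were higher on the HDAC9 siRNA array. Parp8 was read by 1 probe set, 1451474_a_at, with signals of 8.32 and 8.29. The major vault protein gene Mvp, which encodes the shell that PARP4 belongs to, was at 9.78 and 9.94, a difference of 0.16; it was chosen after its values were seen.

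**Figure D1:**
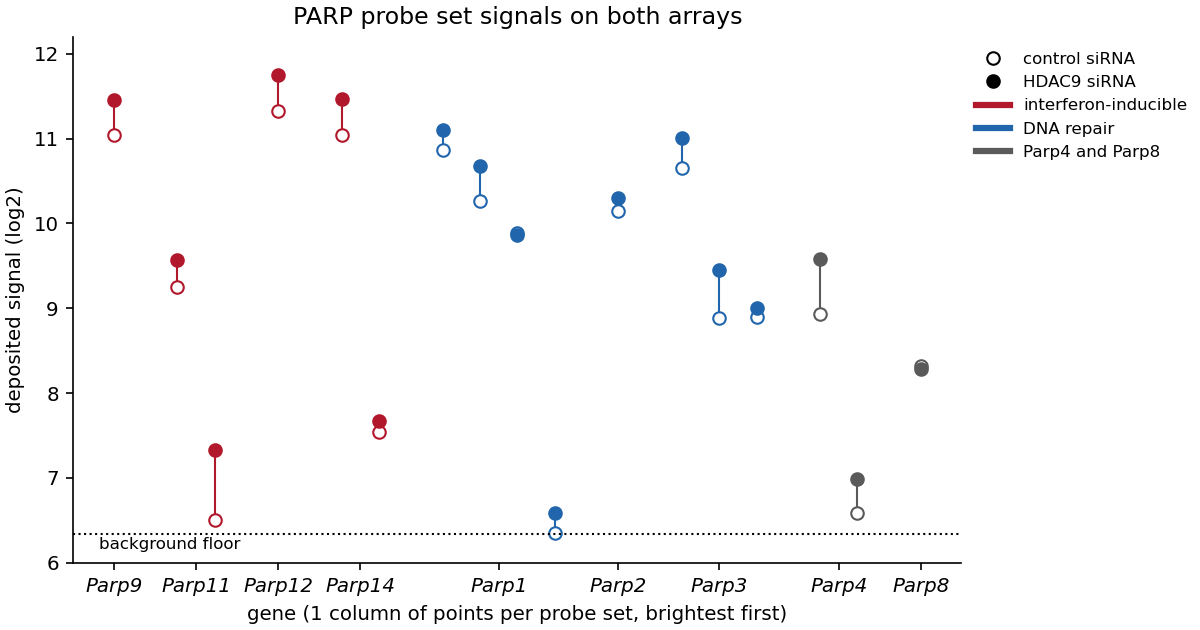
Deposited log2 signal (y axis) of each of the 17 PARP probe sets, with 1 column of points per probe set, open for the control siRNA array and filled for the HDAC9 siRNA array; the dotted line is the background floor of 6.34. The filled point lies above the open one in 15 of 17 columns, and the exceptions are 1 probe set of Parp1 and that of Parp8.

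Of the 17 probe sets, 15 had a difference above 0, against 53.4% of all probe sets above background, 2 were at least 1.5-fold higher (8.02% of all) and 0 were at least 2-fold higher or lower (1.95% of all). Of the 9 genes, each taken by its brightest probe set, 8 had a difference above 0 (54.1% of the 12090 genes above background). At least 1.5-fold higher was 1 gene, Parp4 (7.81% of all genes), and 0 genes were 1.5-fold lower (2.79%). Past 2-fold were 0 members, against 1.44% of genes higher and 0.372% lower. The median difference was 0.35 for the 9 members and 0.03 for all genes above background.

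The median log2 difference was 0.42 for the 4 interferon-inducible genes and 0.23 for the 3 repair genes, 0.19 apart. The groups overlapped, since Parp3 (0.35) was above Parp11 (0.31). In the other 11 of 12 pairings of a gene from each group the interferon-inducible gene was the higher. Zc3hav1 (0.15) and Tiparp (0.07) are also interferon-inducible but were not among the listed members, so this contrast leaves them out. Both were below Parp1 (0.23) and Parp3. Over all probe sets, 6 of the first group and 8 of the second, the medians were 0.42 and 0.23. The interferon-inducible probe set was higher in 35 of 48 pairings. Parp1 gave 4 and Parp3 gave 3 of the repair probe sets. Probe sets of 1 gene are not independent, so this count gives more weight to genes with several. Dropping names that end in _s_at, _x_at or _a_at left out all probe sets of Parp3, the only repair gene that overlapped. It also left out the Parp1 probe set at 0.41. The medians of the remaining 4 and 2 genes were 0.23 apart. That their 8 pairings showed no overlap follows from leaving out Parp3 and says nothing further about the groups.

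Scatter could be measured only within the arrays, from genes read by several probe sets. Taken as the standard deviation of how far a gene's 2 brightest probe sets differed, divided by the square root of 2, it was 0.29 on the log2 scale over 5671 genes, and 0.13 over the 874 of these genes whose second probe set was in the brightest group when genes above background were split into 4 equal groups by mean signal. This scatter leaves out differences between cultures. Parp9, Parp11, Parp12, Parp14, Parp3 and Parp4 had differences above 0.29 (22.2% of all genes did), while Parp1, Parp2 and Parp8 did not. This split depends on taking all genes together, since the scatter of the other groups was 0.39, 0.28 and 0.18 from the dimmest up. Set against the scatter of its own brightness group, Parp1 (0.23 against 0.13) was above it as well. Parp2 (0.15 against 0.18) and Parp8 (-0.03 against 0.28) were still not.

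**Figure D2:**
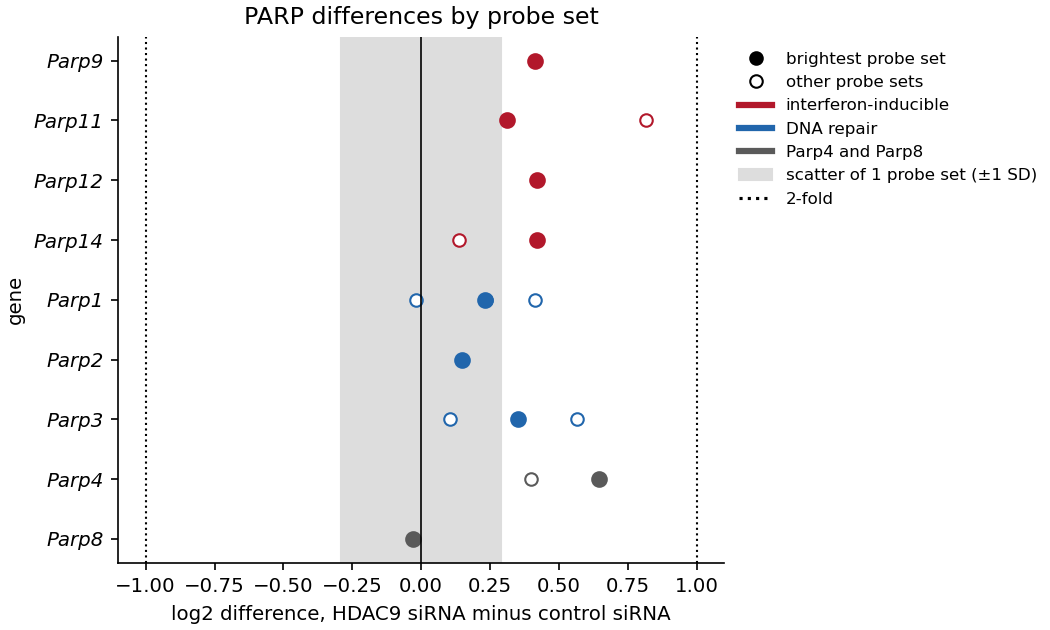
Log2 difference, HDAC9 siRNA minus control siRNA (x axis), of each PARP probe set by gene (y axis), with the brightest probe set filled and the others open; the grey band is the 0.29 scatter of 1 probe set and the dotted lines mark 2-fold. The brightest probe sets of the interferon-inducible genes lie between 0.31 and 0.42 and those of the repair genes between 0.15 and 0.35.

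Large differences were more frequent among dim genes: 15.4% of the dimmest of the 4 groups and 1.55% of the brightest were at least 1.5-fold higher. Among the 3023 genes of the brightest group the median difference was -0.05, and the 5th and 95th percentiles were -0.34 and 0.37. Parp9, Parp12, Parp14, Parp1 and Parp3 were in this group. In it, 4.04% of genes had a difference at least as high as that of Parp9, 3.90% as high as that of Parp12, 3.87% as high as that of Parp14, 5.66% as high as that of Parp3 and 10.4% as high as that of Parp1. Parp11, Parp2 and Parp4 were in the next brightest group of 3022 genes, where 15.2%, 31.4% and 3.57% of genes, respectively, were at least as high. Parp8 was in the group below, with 63.2% at least as high. These shares place the members among all genes of the same 2 arrays and say nothing about replicates.

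**Figure D3:**
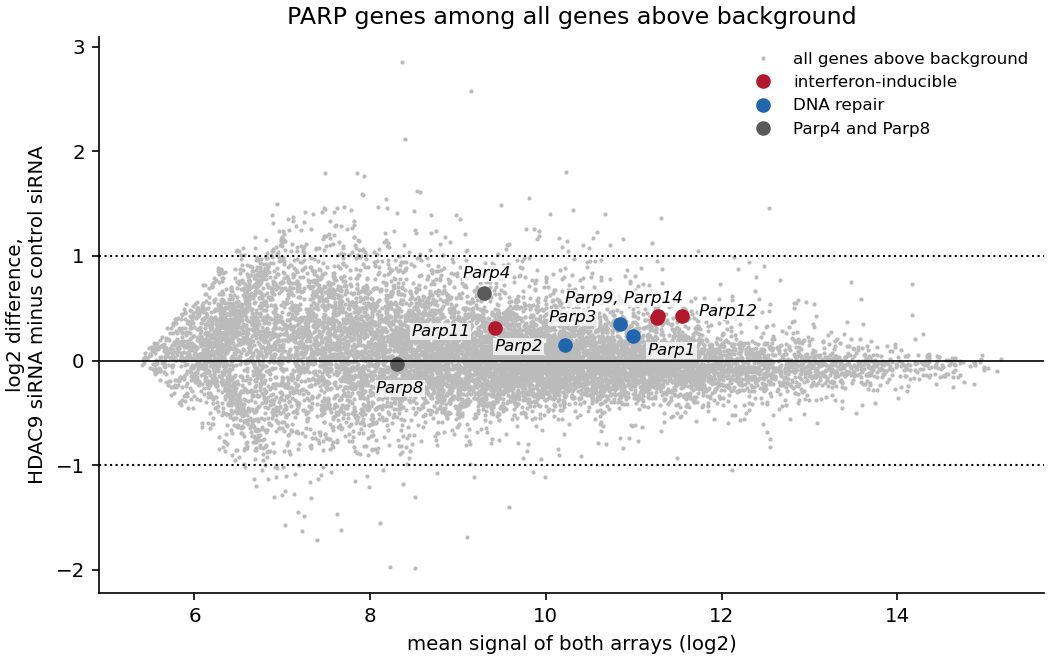
Log2 difference, HDAC9 siRNA minus control siRNA (y axis), against mean log2 signal of both arrays (x axis) for the 12090 genes above background (grey) and the 9 PARP genes (coloured by group); dotted lines mark 2-fold. Parp9, Parp12 and Parp14 sit together at differences of 0.41 to 0.42 above most genes of like brightness, and Parp8 sits at -0.03.

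The rest of the family spanned 0.03 to 0.72. Of 6 further PARP genes, all above background, 1 was at least 1.5-fold higher and 0 were lower, and the median was 0.11. Parp16, which resides in the endoplasmic reticulum membrane, had signals of 6.89 and 7.61 (difference 0.72) and was dim on both arrays. Zc3hav1, the interferon-inducible PARP13 or zinc-finger antiviral protein, had 12.16 and 12.31 by its brightest probe set (0.15), 8.63 and 9.21 by the second (0.58), and another probe set that was above background on the HDAC9 siRNA array only. Tiparp, or PARP7, also interferon-inducible, had 11.18 and 11.25 by its brightest probe set (0.07); the others gave -0.10 and -0.06. The tankyrase gene Tnks was at 9.73 and 10.01 (0.28). Parp6 (0.07) and Tnks2 (0.03) were nearest to 0; Tnks2 turned to -0.00074 after centring on the median, Parp6 to -0.01 after quantile normalization and -0.06 after loess, and Tiparp to -0.06 as the median of its probe sets. By their brightest probe sets, Zc3hav1 and Tiparp thus had smaller differences than Parp9, Parp11, Parp12 and Parp14.

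Dtx3l encodes the ubiquitin ligase that forms a complex with PARP9. By order of protein-coding genes in the RefSeq gene table, it lies between Parp14 and Parp9 on chromosome 16. Kpna1 is adjacent to Parp9 on the other side, and Hspbap1 is adjacent to Parp14. Its signals were 10.43 with the control siRNA and 10.87 with the HDAC9 siRNA (1439825_at, difference 0.44) and 10.37 and 10.74 by a second probe set (1435208_at, 0.37). The 3 neighbours Parp14, Dtx3l and Parp9 therefore had differences of 0.42, 0.44 and 0.41. The differences of Kpna1 and Hspbap1 are not given, so these values do not describe the region. Of 10 measured genes for partners and activators of PARPs, 1 was at least 2-fold higher and 0 lower, with a median of 0.15. That gene was Tnks1bp1, which binds tankyrase; it was below the floor on the control array and so at least 3.46-fold higher (a bound of 1.79 on the log2 scale, or 1.21 with the floor at percentile 99). The Deltex ligase genes Dtx2 (0.98, or 0.68 as the median of its probe sets) and Dtx3 (0.87) came next. Hpf1, whose protein directs PARP1 and PARP2 to serine residues, was at 11.04 and 11.10 (0.06) and was chosen after its values were seen.

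Of 11 genes above background for ADP-ribose removal or macrodomain proteins, 5 had a difference above 0, 0 were at least 2-fold higher and 1 was lower. The median was -0.11, or 0.02 when each gene was the median of its probe sets, so its sign depends on that choice. The lower gene was Macroh2a2, a histone variant with a macrodomain, with signals of 7.36 and 6.26, the second below the floor, which put it at least 2.03-fold lower; with a higher floor, at percentile 99, its bound was -0.44, short of 2-fold. The mono-ADP-ribose hydrolase gene Macrod2 (0.45, or 0.03 with the floor at percentile 99) was near the floor and Nudt16, whose protein can cleave ADP-ribose from proteins, was at -0.41, or -0.07 as the median of its probe sets. Parg, the main enzyme that degrades poly(ADP-ribose), chosen after its values were seen, had signals of 10.16 and 10.46 (0.29), a difference close to that of Parp1.

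Genes for base excision and single-strand break repair centred near 0. Of 21 such genes above background, 10 had a difference above 0 and 11 below, and 0 were past 2-fold. Their median was -0.0032. Aplf, a repair factor that binds poly(ADP-ribose), was below the floor with the HDAC9 siRNA (7.17 and 4.04) and so at least 1.77-fold lower; with the floor at percentile 99 its bound was -0.24, short of 1.5-fold. Tdp1 had a difference of 0.40 and Apex2 one of 0.39, or 0.77 as the median of its probe sets. Xrcc1, the scaffold protein that binds the chains made by PARP1, was at 9.11 and 9.27 (0.17), chosen after its values were seen. Of 17 genes for double-strand break repair, 0 were past 2-fold and the median was 0.11, or 0.0013 after loess on mean signal. The largest differences were those of Timeless, a replication fork protein that binds PARP1 (0.66, or 0.36 as the median of its probe sets), Brca2 (0.61) and Atr (-0.45).

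NAD+ is the substrate of all active PARPs. Of 12 genes above background for making and using it, 6 had a difference above 0 and 6 below, 0 were past 2-fold, and the median was 0.04. Nmrk1, a nicotinamide riboside kinase, had signals of 8.91 and 8.14 (-0.77), Bst1, an ADP-ribosyl cyclase at the cell surface, 9.80 and 10.39 (0.59), and Nadk2, a mitochondrial NAD kinase, -0.39. The second probe set of Bst1 gave 0.06. Of the ecto-ADP-ribosyltransferases, enzymes that act outside the cell, 4 were measured and 1 was above background, Art1, at 6.91 and 6.42.

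Other interferon-stimulated genes had larger differences on these arrays. All 22 antiviral interferon-stimulated genes above background had a difference above 0, with a median of 0.56 and a range of 0.17 to 1.40, and 5 were at least 2-fold higher. The 4 interferon-inducible PARPs lay in the lower part of this range: 18 of the 22 genes had a difference above that of Parp14, the highest of the 4, and the other 4 were at or below it. Among those above background on both arrays, the largest were Ifit1 (1.40), Ifit3 (1.17) and Ifit2 (1.12), which bind viral RNA or partner proteins. Mx2 was below the floor with the control siRNA (4.08) and at 7.42 with the HDAC9 siRNA. Its difference is a lower bound and may lie above 1.40, so the top of the range is not certain. Of 12 genes for interferon receptors and their signalling, 1 was at least 2-fold higher, Irf7, with signals of 10.47 and 11.83 (1.36), and the median was 0.11. Usp18, a feedback inhibitor of the interferon receptor, was at 0.87.

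**Figure D4:**
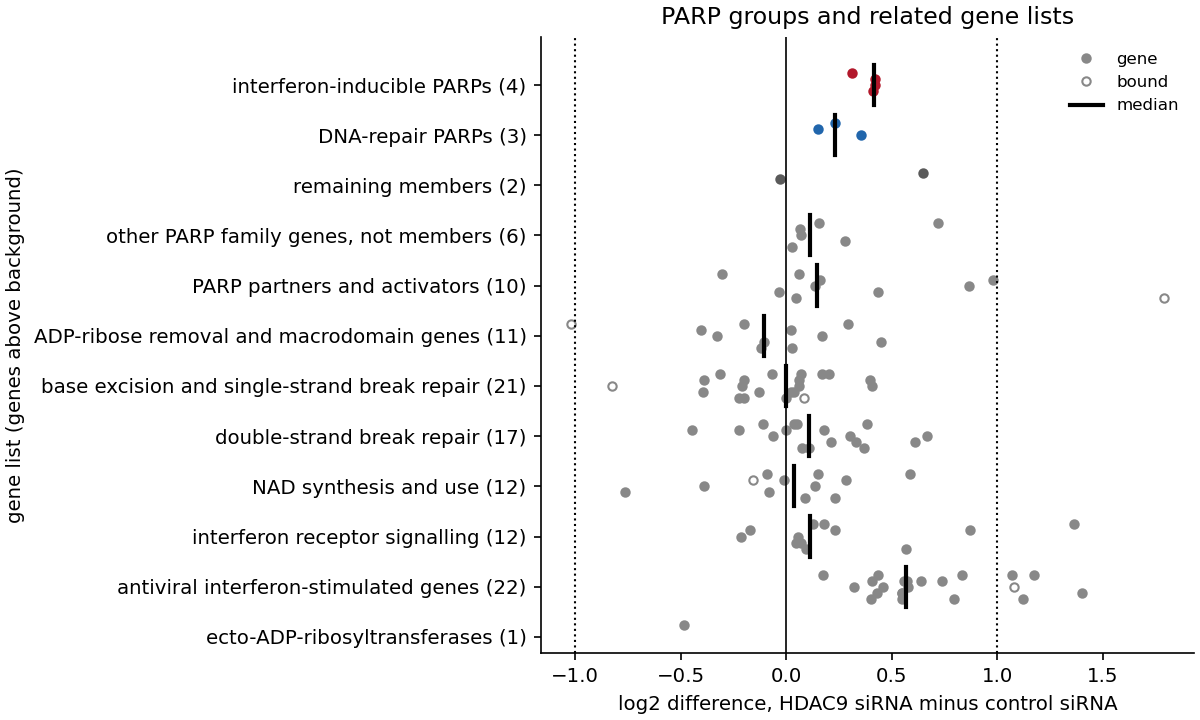
Log2 difference, HDAC9 siRNA minus control siRNA (x axis), of each gene above background in the PARP groups and related lists (y axis, with the number of genes); open points are bounds with 1 array at the floor, black bars are medians of lists of 3 or more genes, and dotted lines mark 2-fold. By median, the interferon-inducible members (0.42) lie between the repair PARPs (0.23) and the antiviral genes (0.56). The single-strand break repair genes centre near 0.

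Facts of the arrays that bear on these values were as follows. The siRNA target Hdac9 was near the floor. Its brighter probe set went from a log2 signal of 6.88 with the control siRNA to 5.69, under the floor, with the HDAC9 siRNA. That is at least 1.46-fold lower, or a difference of -1.19 with the floor at percentile 75. With the floor at percentile 99, Hdac9 was at background on both arrays and had no difference. Its second probe set, 1421306_a_at, was below the main floor on both and nearly level, at 5.99 and 5.94. The lower value therefore rests on 1 probe set near the floor. All 8 macrophage markers were above background, with a median difference of -0.01. Fcgr1 was at 0.43, Mertk at 0.37 and Cd14 at -0.46, and the rest lay between -0.15 (Csf1r) and 0.01 (Adgre1). Of 5 markers of large peritoneal macrophages, Timd4 and Garnl3 were below background on both arrays. Gata6 (0.46), Icam2 (0.40) and Selp (0.37) were above it, with a median of 0.40. Fibroblast markers were also present: 5 of 5 were above background, their summed linear signal was 23648 with the control siRNA and 32013 with the HDAC9 siRNA (1.35-fold), and Col1a1 (1.80) and Col3a1 (1.46) were past 2-fold, while Lum was at 0.58, Dcn at 0.13 and Pdgfra at -0.10 (0.01 as the median of its probe sets). Mesothelial markers, 5 of 5 above background, had summed signals of 8044 and 9782 (1.22-fold) and a median difference of 0.24: Lrrn4 was at 0.56, Wt1 at 0.44, Upk3b at 0.24, Krt19 at -0.18 and Msln at -1.11 (-0.57 with the floor at percentile 99). The summed signals of the interferon-inducible PARPs differed by 1.33-fold, and the part of the stromal and large peritoneal macrophage markers in the PARP differences was not tested. For T cells, B cells, natural killer cells, neutrophils, dendritic cells, mast cells and erythroid cells, 1 or 2 markers a list were above background. On both arrays these were S100a8 (9.13 and 8.91), Mmp8 (8.63 and 8.73), Zbtb46 (7.42 and 7.67) and Prf1 (6.63 and 6.70). Cd8a and Klf1 were above it with the control siRNA only, and Pax5, Siglech and Tpsab1 with the HDAC9 siRNA only. The T cell receptor genes Cd3d, Cd3e and Cd3g and the B cell receptor genes Cd79a and Cd79b were below it on both arrays. In such bulk samples, fewer cells of a type and less RNA per cell cannot be told apart.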

How the data were processed

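Per the labels' protocols, total RNA was labelled with biotin and hybridised to Affymetrix arrays, 1 per group. The authors deposited a log2 signal for each probe set. The submitters' processing notes name MAS5, which reduces a set's probes to 1 signal; no source used here gives its version or settings. The table held 45037 probe sets, with column medians of 6.44 (control) and 6.59 (HDAC9 siRNA) and trimmed mean linear signals of 497 on both arrays, so the authors' scaling was kept. No source used here says how probes were centred or filtered before deposit.

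Gene names came from the platform's 2016 annotation: 34945 probe sets had 1 gene symbol, 932 several and 9160 none, and 34741 of the first kind matched the RefSeq gene table of GRCm38.p6. Signals were raised to a floor, the 95th percentile of 80 olfactory and vomeronasal receptor probe sets (log2 6.34), before differences were taken, so a value with 1 array at the floor is a bound. A gene is its probe set with the highest mean linear signal. Since each group is 1 array, no test was run and no spread between samples is known; precision is limited by that number of arrays. The steps were tested on simulated data with the same noise for every probe set and shifts only in genes well above the floor. Bounds and noise that changes with brightness were therefore not tested.

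The members and lists were chosen with earlier results of these data known. Named genes are the members, the siRNA target, set relatives and partners and, of each pathway list, the 3 largest absolute differences (all where 5 or fewer were above background); some genes of this rule are not reported here. Cell type markers are named from their lists. Mvp, Hpf1, Parg, Xrcc1, Parp6, Tnks2 and Mx2 fall outside the rule and were chosen after their values were seen. Alternatives were quantile normalization, median centring, loess (span 0.3), floors at percentiles 75 and 99, a pseudocount of 1 in place of the floor, a gene's median over probe sets, dropping names with the endings _s_at, _x_at and _a_at, and calls at 1.5-fold or 3-fold. Python 3.11.15, numpy 2.4.6 and pandas 2.3.3 were used.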

Additional observations from a re-analysis of the deposited data

How the results depend on the processing

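No paired analysis was possible because each group has 1 array, and for the same reason no sample could be left out. The median of the interferon-inducible PARPs ranged from 0.39 (centring on the median) to 0.43 (quantile normalization), that of the repair PARPs from 0.19 (without _s_at, _x_at and _a_at probe sets, which removes Parp3) to 0.24, and their distance from 0.18 to 0.23. A change was counted as a move when it reached the scatter of a single probe set, divided for a median by the square root of the number of genes. Of 70 alternative values of the 9 members, 70 stayed within it and 0 moved. Part of this was fixed in advance. The brightest probe sets of the members were well above the floor, so other floors left their values unchanged. A median over probe sets cannot change Parp2, Parp8, Parp9 and Parp12, which have 1 each. By that median, Parp11 went from 0.31 to 0.56, Parp14 from 0.42 to 0.28 and Parp4 from 0.65 to 0.52, while Parp1 and Parp3 stayed at 0.23 and 0.35. No member was past 2-fold under any alternative scaling, floor, summary or choice of probe sets; at a threshold of 1.5-fold 1 member, Parp4, was higher and 0 were lower. Of 356 values of 46 of the other named genes, 14 moved, mostly under other floors or with the median over probe sets. Of these 46 genes, 4, all short of 2-fold, changed sign under at least 1 alternative: Tiparp, Parp6, Tnks2 and Pdgfra. Medians of further lists also turned sign. That of genes for ADP-ribose removal or macrodomain proteins went to 0.024 by the median over probe sets. Ecto-ADP-ribosyltransferases went to 0.19 with no floor, and NAD+ genes to -0.05 with the floor at percentile 75. Single-strand break repair genes were at 0.01 with that floor or none and at 0.03 by the median over probe sets. The cause was not tested, except that a lower floor or none adds genes at background.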
